A study of Mus musculus with 2 samples.

Results

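The kinesin genes of Drosha knockout mouse embryonic stem (ES) cells are described here: the protein-coding genes of the GENCODE mouse M21 annotation whose symbol starts with Kif and a digit or with Kifc and which are listed in both count files. The rule found 43 of 43629 genes. Of these, 42 encode proteins of the kinesin family and are called motors here. Among them is Kif26a, which binds microtubules without ATPase activity. The remaining member, Kif1bp, encodes a protein that binds kinesins and is no motor, so it was kept in the member count and left out of the motor classes. The cells had the 129/Ola background, were labelled with blastocyst as their tissue, and carried a Drosha knockout that the series title ascribes to a paired CRISPR/Cas9 approach. They were kept in serum plus LIF, a factor that holds mouse ES cells in the undifferentiated state, with no treatment named, to passage 7. Drosha is the enzyme that cuts microRNA precursors in the nucleus. Poly-A RNA was sequenced in 2 libraries of this 1 genotype, B with 42322129 and A with 29264632 gene counts, so nothing here compares knockout with wild-type cells. Drosha itself had 7023 reads in B and 4865 in A (166.4 and 165.8 CPM). A count over the whole gene does not show which exons are missing, so these counts do not check the knockout label. The titles number the cells 1 and 2 while both source names are the same, and separate cultures are not stated, so the spread between the libraries may be technical. Both titles also hold the label d5, which they do not explain.

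Most kinesins are motor proteins that hydrolyse ATP and move along microtubules or take their ends apart. One set works in dividing cells, where it builds the spindle, moves chromosomes and organises the midzone on which cells divide. Another set carries vesicles, organelles and RNA along microtubules and is best known from the long axons and dendrites of neurons. Mouse ES cells divide quickly and are not neurons. The classes compared below were written by hand from such known roles, with 14 mitotic and 12 neuronal transport kinesins.

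Promoters of 7 members are shown first, because many genes that are switched on in the late cell cycle carry a short element called CHR (letters TTTGAA), bound by the DREAM and B-MYB complexes, and NF-Y boxes (letters CCAAT). Each window holds 250 bases before and 50 bases from the RefSeq start site (build GRCm38.p6), written 5′ to 3′ in the gene's direction, with every match to either motif on either strand in capitals. On the opposite strand the motifs read TTCAAA and ATTGG. The first 5 belong to mitotic kinesins: the chromosome-binding motor Kif22 (chr7:127042371-127042670, minus strand), the spindle pole separating motor Kif11 (chr19:37376132-37376431, plus strand), the midzone motor Kif23 (chr9:61946750-61947049, minus strand), and the near-copies Kifc1 (chr17:33890584-33890883, minus strand) and Kifc5b (chr17:26916841-26917140, plus strand), which encode pole-focusing motors. The other windows belong to the transport motors Kif3a (chr11:53567119-53567418, plus strand) and Kif5c (chr2:49619036-49619335, plus strand). The 7 genes were picked by hand and do not stand for their classes. All 5 mitotic windows shown hold both motifs, whereas 8 of 13 mitotic genes with a window do. Neither transport window shown holds the CHR letters.
Kif22: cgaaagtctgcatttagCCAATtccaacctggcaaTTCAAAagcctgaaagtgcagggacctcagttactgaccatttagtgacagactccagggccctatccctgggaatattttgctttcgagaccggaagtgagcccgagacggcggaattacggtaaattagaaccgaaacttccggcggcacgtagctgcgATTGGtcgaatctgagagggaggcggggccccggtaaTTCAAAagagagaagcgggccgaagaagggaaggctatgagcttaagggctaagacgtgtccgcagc
Kif11: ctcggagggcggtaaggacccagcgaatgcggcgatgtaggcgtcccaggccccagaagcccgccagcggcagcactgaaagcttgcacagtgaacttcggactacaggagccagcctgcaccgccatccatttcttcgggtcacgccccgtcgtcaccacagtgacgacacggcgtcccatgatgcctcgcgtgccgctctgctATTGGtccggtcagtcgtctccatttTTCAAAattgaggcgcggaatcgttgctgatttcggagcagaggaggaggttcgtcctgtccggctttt
Kif23: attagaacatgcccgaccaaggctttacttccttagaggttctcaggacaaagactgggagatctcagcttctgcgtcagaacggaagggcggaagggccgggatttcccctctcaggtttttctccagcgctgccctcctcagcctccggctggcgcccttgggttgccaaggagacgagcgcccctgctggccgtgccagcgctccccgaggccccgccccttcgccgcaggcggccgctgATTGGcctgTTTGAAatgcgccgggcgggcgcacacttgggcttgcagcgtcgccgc
Kifc1: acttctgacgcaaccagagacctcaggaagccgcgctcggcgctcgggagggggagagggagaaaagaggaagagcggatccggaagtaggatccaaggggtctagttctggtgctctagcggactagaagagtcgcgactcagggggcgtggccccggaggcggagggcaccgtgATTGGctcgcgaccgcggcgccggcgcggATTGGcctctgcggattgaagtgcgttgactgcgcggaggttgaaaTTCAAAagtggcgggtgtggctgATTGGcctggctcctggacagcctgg
Kifc5b: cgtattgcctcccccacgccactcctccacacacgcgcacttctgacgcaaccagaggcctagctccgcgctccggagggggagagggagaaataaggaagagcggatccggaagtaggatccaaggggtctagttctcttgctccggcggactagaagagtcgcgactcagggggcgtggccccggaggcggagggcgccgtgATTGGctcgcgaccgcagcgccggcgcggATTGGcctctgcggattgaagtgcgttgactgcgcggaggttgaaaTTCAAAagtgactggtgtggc
Kif3a: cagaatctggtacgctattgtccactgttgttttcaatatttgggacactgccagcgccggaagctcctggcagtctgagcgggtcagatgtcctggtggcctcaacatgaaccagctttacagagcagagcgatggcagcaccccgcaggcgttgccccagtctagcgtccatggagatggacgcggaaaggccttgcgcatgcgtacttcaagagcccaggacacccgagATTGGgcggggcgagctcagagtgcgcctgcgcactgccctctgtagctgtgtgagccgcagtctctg
Kif5c: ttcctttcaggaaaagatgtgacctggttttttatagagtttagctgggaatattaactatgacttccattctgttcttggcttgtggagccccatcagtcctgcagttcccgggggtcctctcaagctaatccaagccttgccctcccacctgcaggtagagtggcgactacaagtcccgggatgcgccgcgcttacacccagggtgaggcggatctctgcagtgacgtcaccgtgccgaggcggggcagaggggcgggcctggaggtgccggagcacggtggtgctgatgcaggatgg

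A RefSeq window was matched for 34 of the 43 members, 13 of them mitotic and 8 neuronal transport. The mitotic gene without a window was Kif20a, the kinesin with the highest level. The transport genes without one were Kif5b, the highest of that class, and Kif5a, Kif21b and Kifc2. The shares below leave these genes out. The CHR letters stood in the windows of 11 of 13 mitotic kinesins (84.6%), of 1 of 8 neuronal transport kinesins (12.5%) and of 18.5% of 17492 protein-coding genes with windows of the same length. NF-Y letters stood in 9 of 13 mitotic (69.2%) and 3 of 8 transport kinesins (37.5%), against 42.3% of all. Both motifs stood together in 8 mitotic kinesins (61.5%), in 0 of the transport kinesins and in 8.37% of all. No CHR match overlapped an NF-Y match in any member's window. A CHR match began within 50 bases of the start site, a distance chosen after the positions were seen, in 9 of 13 mitotic kinesins (69.2%), in 1 of 8 neuronal transport kinesins (12.5%) and in 4.58% of all. Among the genes with CHR letters these were 9 of 11 mitotic kinesins and the 1 transport gene, against 802 of 3230 protein-coding genes (24.8%). The mitotic genes without the CHR letters were Kif18a, whose window held neither motif, and Kif2b, which held an NF-Y box only. Kif2c, Kif15 and Kif20b held CHR letters and no NF-Y letters. The 1 transport gene with CHR letters was Kif1a, in a window at an internal start 19471 bases downstream of its annotated GENCODE start. The RefSeq start lay downstream of the GENCODE start by 3867 bases in Kif2c, 1505 in Kif14 and 328 in Kif4. In Kif17 it lay 11816 and in the cilium gene Kif27 4175 bases downstream. These windows thus do not lie at the outermost annotated start. Kif4 is among the 9 mitotic genes with a CHR match within 50 bases of the RefSeq start. Of the spindle and midzone genes that work with the mitotic motors, 8 of 13 with a window (61.5%) held the CHR letters. These counts describe letters in a window and not binding.

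Nearly all kinesins had RNA in these cells. The threshold for expression was 1 CPM in each library, where CPM stands for counts per 1e6 after scaling of the library size. Of the 43 members 37 reached this level (86.0%), against 57.8% of all 21551 protein-coding genes. All 12 neuronal transport kinesins and all 5 vesicle and endosome kinesins did so, as did 13 of 14 mitotic, 4 of 6 cilium and 2 of 5 other kinesins. At least 10 reads were found for 41 of the 43 members, and 84.0% of the 14825 protein-coding genes with as many reads reached 1 CPM. CPM does not correct for gene length, and the median exon length was 6393 bases in the members and 3527 in all protein-coding genes. Levels of different genes are compared below in TPM, which divides the count by the length of the gene's annotated exons. Comparisons of single genes can change if the length of the longest transcript is taken instead. The median level of the members, including those with 0 reads, was 12.5 TPM in B and 12.6 in A. That of all protein-coding genes, also including those with 0 reads, was lower, at 2.64 TPM in B and 2.71 in A. For the protein-coding genes with at least 10 reads it was 11.3 and 11.6 TPM. Single values are followed by the mean ± SD of both libraries (n = 2) where it is given.

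**Figure D1:**
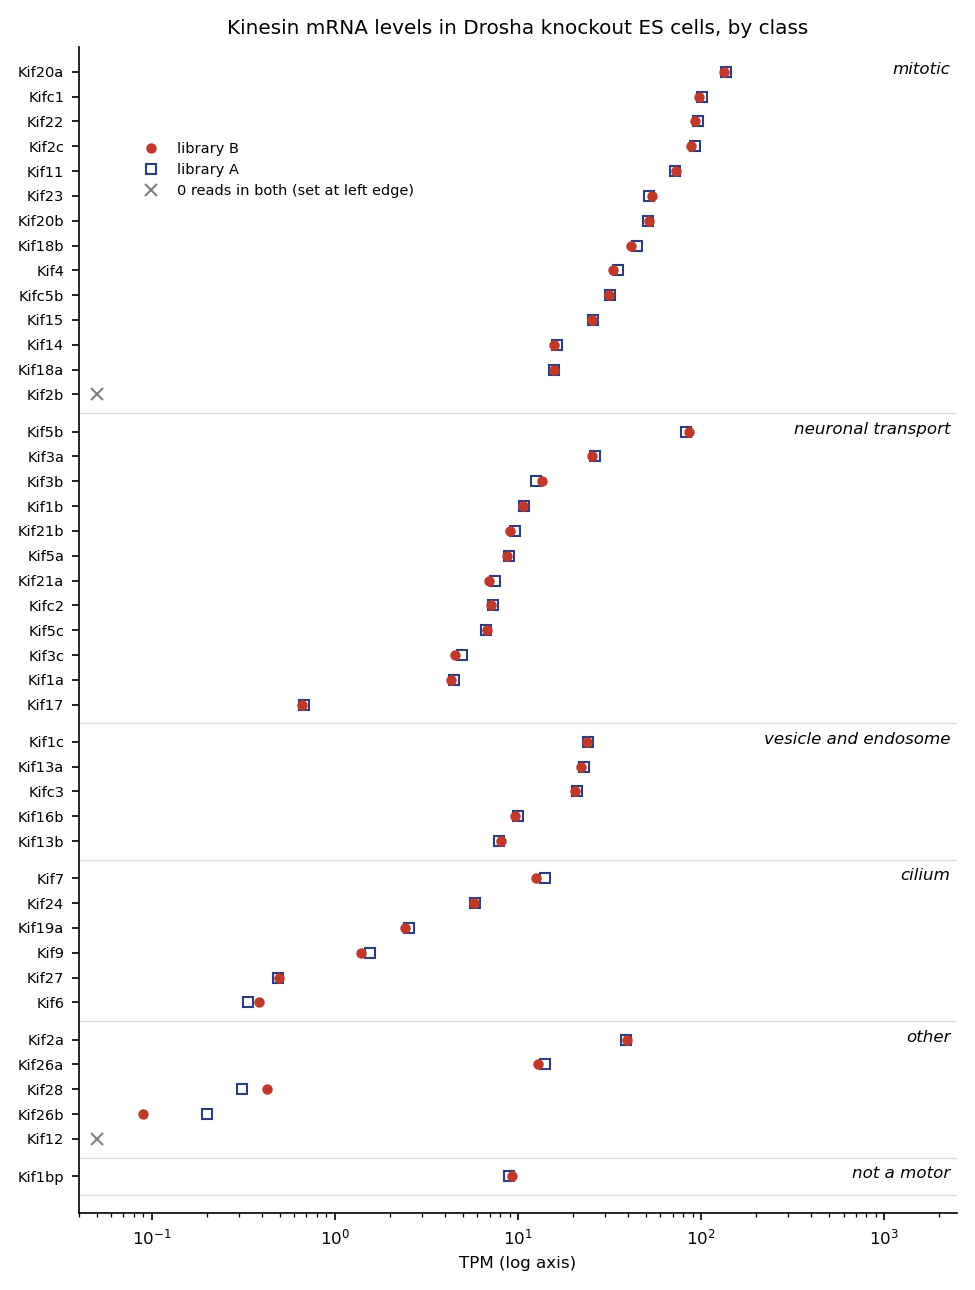
Level of each kinesin in TPM (log axis) in library B (filled circles) and library A (open squares), by class and in order of the mean. The mitotic motors with reads lie between 15.7 and 137 TPM, 10 of 12 neuronal transport motors lie between 4.30 and 26.4 TPM with Kif5b above and Kif17 below them, and crosses mark Kif2b and Kif12, which had 0 reads.

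The mitotic kinesins were the most abundant class. Their median was 46.8 TPM in B and 48.1 in A, whereas the neuronal transport kinesins had a median of 7.92 TPM in B and 8.23 in A. The medians thus differed 5.91-fold in B and 5.84-fold in A, a log2 ratio of mitotic over neuronal transport of 2.55 ± 0.012 (SD of the libraries, n = 2). That SD covers the libraries and not the spread between genes. The quartiles of the mitotic genes were 27.0 and 84.2 TPM in B, and those of the transport genes were 6.21 and 11.4. In each library 13 of 14 mitotic genes were above the transport median, and 1 of 12 transport genes, Kif5b, was above the mitotic median. Mitotic kinesins made up 68.7% of the summed TPM of all motors in B and 69.0% in A, and neuronal transport kinesins 16.7% and 16.3%. The vesicle and endosome class held 7.65% and 7.68% of it, the cilium class 2.09% and 2.21%, and the other motors 4.80% and 4.78%.

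**Figure D2:**
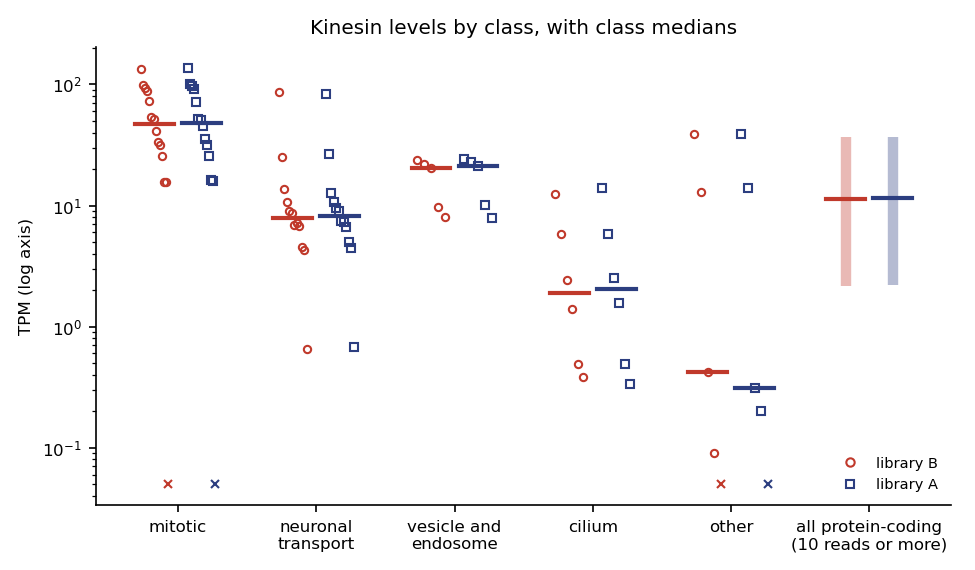
Levels in TPM (log axis) of the motors of each class in library B (circles, left of each pair) and library A (squares), with horizontal lines at the class medians and crosses for genes with 0 reads. At the right the bars span the quartiles of all protein-coding genes with at least 10 reads. The mitotic medians of 46.8 and 48.1 TPM stand above the transport medians of 7.92 and 8.23 TPM.

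Among the mitotic motors, those of the midzone and cytokinesis were led by Kif20a, which brings the chromosomal passenger complex to the midzone. Kif20a (chromosome 18, 34624613 to 34633277 in GRCm38, the build of all gene positions here) had 9239 reads in B and 6494 in A, or 134 and 137 TPM (135 ± 2.28), the highest level of any kinesin and at the 94.5th percentile of protein-coding genes with a read. Over 29.3% of its exon bases it overlaps Cdc23 on the opposite strand. Whether counting used the strand was not stated, so some of these reads may belong to Cdc23. Kif23, which forms centralspindlin with the GTPase-activating protein Racgap1, had 53.7 TPM in B and 52.1 in A (52.9 ± 1.08). Kif20b, which acts late in cytokinesis, was at nearly the same level by this measure, with 52.0 TPM in B and 51.2 in A. That likeness depends on the length used. The longest transcript of Kif23 has 3398 bases against 7901 exon bases, and that of Kif20b 5564 against 6957. Kif4, which binds chromosomes and sets the length of the midzone together with Prc1, had 33.2 TPM in B and 35.1 in A. Its exons overlap Pdzd11 on the opposite strand over 15.1% of their length. Kif14, another cytokinesis motor, was among the lowest of the class, with 15.7 TPM in B and 16.3 in A.

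The motors that build the spindle were led by Kifc1, a minus-end directed motor that gathers microtubule ends at the poles. Kifc1 (chromosome 17, 33875659 to 33890661) had 98.02 TPM in B and 101.3 in A (99.6 ± 2.29), and Kifc5b had 31.6 and 31.7 TPM. Both are near-copies on chromosome 17, and 47.6% of the 50-base words of the longest Kifc1 transcript and 42.1% of those of Kifc5b also occurred in a transcript of another gene, mostly each other, so the split of reads between them is uncertain. Their promoter windows, shifted by 28 bases, were identical at 239 of 272 positions (87.9%). Kif11 (chromosome 19, 37376403 to 37421859), which slides antiparallel microtubules apart to separate the poles, had 8722 reads in B and 5840 in A, or 73.4 and 71.6 TPM (72.5 ± 1.27). Kif15, which can take over part of the work of Kif11, had 25.5 and 25.6 TPM, so its level was 0.347 of that of Kif11 in B and 0.358 in A. These ratios depend on the length used. The longest transcript has 4858 bases against 11020 exon bases for Kif15, and 4819 against 7461 for Kif11.

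The mitotic motors that act on chromosomes and microtubule ends covered a wide range. Kif22, which binds DNA and pushes chromosome arms away from the poles, had 93.2 TPM in B and 96.7 in A (94.9 ± 2.49). Kif2c, which takes microtubule ends apart and helps to correct faulty attachments of chromosomes, had 87.8 TPM in B and 92.4 in A. Kif18b, which shortens astral microtubules together with Kif2c, had 41.6 TPM in B and 45.0 in A. Kif18a, which damps the swinging of chromosomes at the spindle equator, was the lowest mitotic motor with reads by this measure, at 15.7 and 15.8 TPM. Kif14 was close to it, and their order depends on the length used. The longest transcript has 6509 bases for Kif18a and 8943 for Kif14, against 9832 and 10358 exon bases. Kif2b, a relative of Kif2c studied on spindles of human cells, had 0 reads in both libraries, which allows up to 0.0840 TPM in B and 0.122 in A, the level of 3 counts per library. This limit covers counting error only. Kif2a, another member of that family, which acts both at spindle poles and in neurites and was kept outside both classes, had 39.3 TPM in B and 38.9 in A. Of the summed TPM of the family Kif2c took 69.1% in B and 70.4% in A.

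The kinesin-1 and kinesin-2 families of the transport class were each led by 1 gene, Kif5b and Kif3a. Kif5b (chromosome 18, 6201002 to 6242174), the kinesin-1 heavy chain made in most tissues, had 10897 reads in B and 7243 in A, or 85.8 and 83.1 TPM (84.4 ± 1.92). It was the only transport kinesin above 30 TPM. The neuron-enriched heavy chains were far lower, with Kif5a at 8.73 TPM in B and 8.96 in A and Kif5c at 6.78 and 6.66. Kif5b thus took 84.7% of the kinesin-1 heavy chain TPM in B and 84.2% in A. The light chains, which link this motor to cargo, were at 29.4 and 30.7 TPM for Klc1, 27.8 and 27.1 for Klc4, 23.6 and 25.6 for Klc2 and 15.8 and 17.3 for Klc3.

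The kinesin-2 genes encode motors of axonal and ciliary transport. Kif3a had 25.4 TPM in B and 26.4 in A, its partner Kif3b had 13.6 and 12.6 and the alternative partner Kif3c had 4.50 and 4.96. Kif3c overlaps the antisense RNA 1110002L01Rik over 35.3% of its exon bases, and that RNA had 1396 reads in B and 963 in A, more than the 531 and 401 of Kif3c. Kif3a was 1.86 times Kif3b in B and 2.10 times in A. Kifap3, the non-motor subunit that joins Kif3a and Kif3b, stood above both motors at 50.5 and 51.4 TPM. Kif17, a kinesin-2 motor of dendrites and cilia, was the lowest transport gene, with 48 reads in B and 34 in A, or 0.658 and 0.679 TPM.

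Kif1b, which carries mitochondria and synaptic vesicle precursors, had 10.7 TPM in each library. Kif1a, its neuron-enriched relative that carries synaptic vesicle precursors, had 4.30 TPM in B and 4.48 in A. Kif1c, the widely expressed member of that family and counted here with the vesicle and endosome motors, had 24.0 and 24.2 TPM and so exceeded both. Kif21a and Kif21b, which also restrain the growth of microtubules, had 6.95 and 9.04 TPM in B and 7.50 and 9.60 in A. Kifc2, a motor with its motor domain at the C-terminal end that is known from neurons, had 7.11 TPM in B and 7.26 in A. The 7 neuron-enriched genes Kif1a, Kif3c, Kif5a, Kif5c, Kif17, Kif21b and Kifc2 had a median of 6.78 TPM in B and 6.66 in A. The other 5 transport genes, which are made in many tissues, had 13.6 and 12.6.

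**Figure D3:**
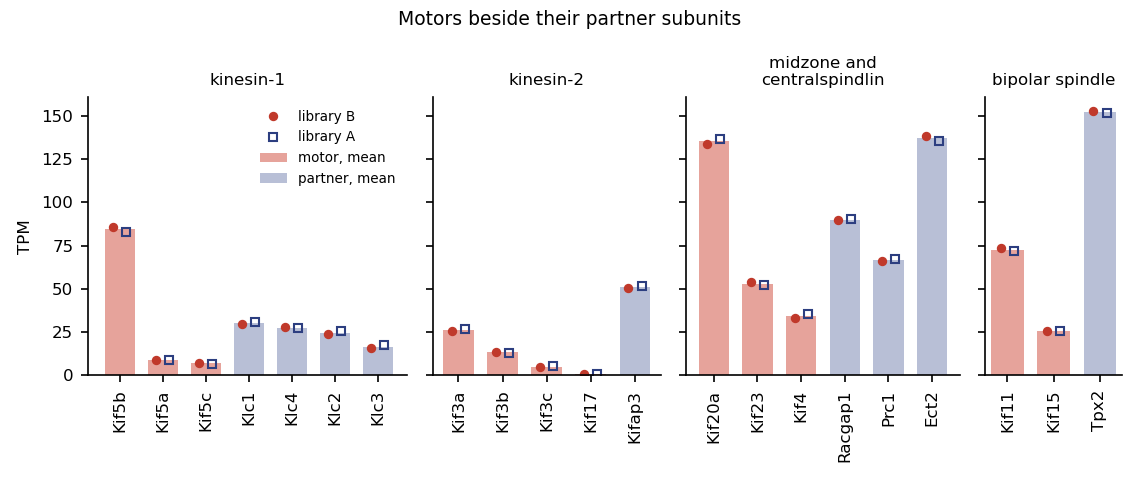
Levels in TPM of kinesin motors (red bars) beside their partner proteins (blue bars), with bars at the mean and points for library B (circles) and library A (squares). Kif5b exceeds each of its light chains taken singly, and the light chains were not summed. By the length of all annotated exons, Kifap3, Racgap1 and Prc1 exceed the motors they bind (Kif3a and Kif3b, Kif23, Kif4).

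The partners of the mitotic motors were also more abundant than those of the transport motors. All 16 spindle and midzone partners reached 1 CPM, with a median of 89.5 TPM in B and 88.7 in A. The highest were the kinase Plk1 (170.2 and 180.4 TPM), Tpx2, which loads Kif11 and Aurora A on spindle microtubules (153 and 152 TPM), and Aurka, Aurora A itself (146 and 148 TPM). Cenpe, a kinetochore kinesin whose symbol the rule does not take, had 33.5 TPM in B and 33.7 in A. Racgap1 had 89.6 and 90.6 TPM, so by the length of all annotated exons Kif23 stood at 0.599 of it in B and 0.575 in A. Prc1 had 65.9 and 67.1 TPM, and Kif4 stood at 0.504 of it in B and 0.524 in A. All 13 adaptors and light chains reached 1 CPM, with a median of 17.5 TPM in B and 18.3 in A. They were led by Kifap3, Rhot1, which ties motors to mitochondria (33.8 and 34.1 TPM), and Klc1. Kif1bp itself had 9.23 and 8.92 TPM. Of dynein and dynactin, the minus-end directed machinery, 10 of 11 genes reached 1 CPM, with a median of 65.2 and 65.5 TPM. They were led by Dynll1 (150 and 153), Dctn2 (108 and 114) and Dync1li1 (83.6 and 84.0 TPM). The exception was Dync1i1, the neuron-enriched intermediate chain, at 0.299 and 0.307 TPM.

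The vesicle and endosome motors lay between both main classes, with a median of 20.4 TPM in B and 21.1 in A. Kif1c led them. Kif13a, which moves endosomal cargo, had 22.0 TPM in B and 22.8 in A. The minus-end motor Kifc3 had 20.4 and 21.1 TPM. Kif16b, a motor of early endosomes, and Kif13b were near 10 TPM or below. Among the cilium motors Kif7, which acts in Hedgehog signalling at the ciliary tip, was highest with 12.5 TPM in B and 14.0 in A. Kif24, a centriole kinesin that holds back cilium formation, had 5.78 and 5.85 TPM, and Kif19a, which limits the length of motile cilia, had 2.41 and 2.54. Kif9, at 1.39 and 1.55 TPM, Kif27, at 0.494 and 0.491 TPM, and Kif6, at 0.386 and 0.335 TPM, were the lowest of the class. Of the other motors, Kif26a, which binds microtubules without ATPase activity, had 12.9 TPM in B and 14.1 in A, its relative Kif26b had 0.0898 and 0.199, and Kif28 had 0.424 and 0.309. Reads of Kif28 are uncertain, since its exons share 155 bases on the same strand with Ahctf1, a gene with 11488 reads in B and 7646 in A. Kif12, a kinesin known from kidney, had 0 reads in both libraries.

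Markers of cell types were read beside these levels, since in bulk RNA fewer cells of a type and less RNA per cell cannot be told apart. The ES cell markers Pou5f1, Sox2, Nanog, Zfp42, Esrrb and Dppa5a all lay between 287 and 10322 TPM in B and between 293 and 9950 in A. Of 10 neuron markers 8 reached 1 CPM in both libraries, and the list summed to 564 CPM in B and 558 in A. The list spanned a wide range of levels. Stmn2 and Tubb3 had 213 and 106 TPM in B and 211 and 111 in A, and Gap43 and Nefl had 16.3 and 7.99 TPM in B and 17.1 and 9.21 in A, each at or above the median of the neuron-enriched kinesins. Map2, Syp, Rbfox3, Syt1 and Snap25 lay between 0.435 and 1.79 TPM in B and between 0.323 and 1.77 in A, and Dcx had 0 reads. The part of neuron-like cells in the levels of the neuron-enriched kinesins was not tested. Of 6 markers of multiciliated cells 4 reached 1 CPM, with sums of 24.8 CPM in B and 24.4 in A, led by Tekt1, while Dnah5 and Dnah9 were below 1 CPM. Their part in the cilium class was not tested. None of 6 spermatid markers reached 1 CPM, and 4 had 0 reads.

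Both libraries were compared gene by gene by asking, with an exact binomial test (two-sided), whether the part of a gene's reads that came from B departed from that of the scaled libraries. P-values were adjusted by the Benjamini-Hochberg method over the 18198 genes that had 10 or more reads. With 1 library on each side there is no replicate check, and the test weighs the difference against counting error only. In that test 0 of the 41 kinesins with enough reads were called at an adjusted p below 0.05, against 2.29% of all genes tested (1.3% higher in B and 0.989% lower in B), and 0 were also past 2-fold, against 0.0879% of all. At an unadjusted exact binomial p below 0.05 there were 6 of 41 (14.6%), near the 12.4% of all genes tested. These were Kif5b, Kif11, Kif23, Kif18b, Kif3b and Kif26b. The exact test of edgeR, given an assumed coefficient of variation of 0.1, called 0 of the kinesins. Its share over all genes is not given here, so that count says nothing particular about kinesins. The log2 ratio of B over A was within 1.25-fold in 39 of 41 members. Its median was -0.020 over the members and -0.00084 over all genes tested. By class the median was -0.016 for mitotic and -0.027 for neuronal transport kinesins. Kif5b, with 258 CPM in B and 247 in A, had a log2 ratio of 0.064 (95% exact counting interval 0.021 to 0.11) and an adjusted exact binomial p of 0.097. With TMM factors taken over all genes instead it was called, with a log2 ratio of 0.071, a setting in which 463 of 18198 genes were called. Kif3b, with 28.9 CPM in B and 26.4 in A, had a log2 ratio of 0.13 (0.0016 to 0.26, adjusted exact binomial p = 0.386). Of the partner genes, Pafah1b1, a dynein regulator, was called higher in B (log2 ratio 0.071) and Dctn1, the large dynactin subunit, lower in B (log2 ratio -0.16), and neither was called once the trend with GC content was removed (adjusted exact binomial p = 0.776 and 0.119).

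**Figure D4:**
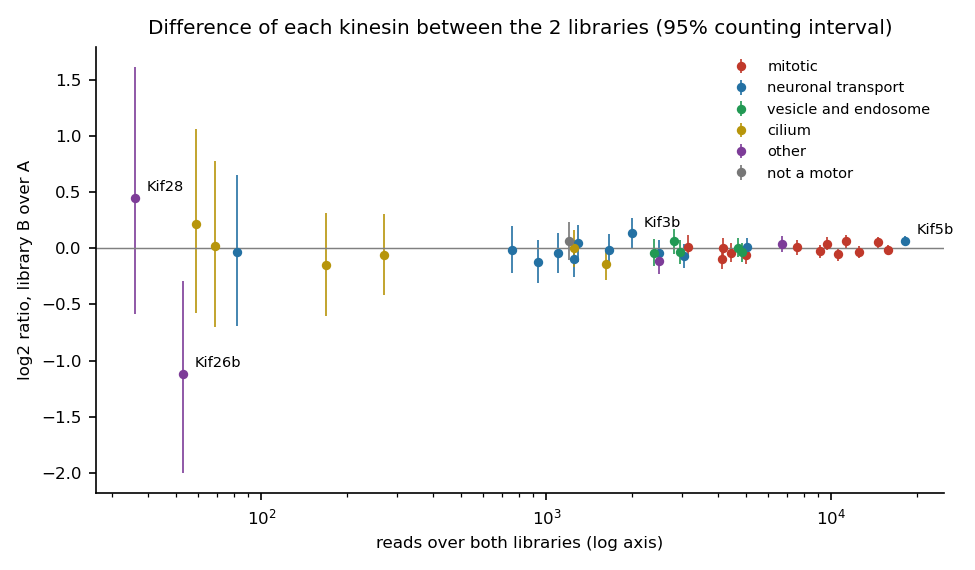
Log2 ratio of library B over library A of the 41 kinesins with at least 10 reads, against their reads over both libraries (log axis), with 95% exact counting intervals and colours for the classes. Most points lie near 0 and the intervals widen to the left, where Kif26b stands lowest at -1.12.

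Kif26b, a relative of Kif26a that works in kidney development, showed the largest difference. It had 21 reads in B and 32 in A, or 0.497 and 1.09 CPM, a log2 ratio of -1.12 with an interval of -2.0 to -0.29 and an adjusted exact binomial p of 0.122. Fibroblast markers were lower in B too: their 6 genes summed to 3.43 CPM in B and 8.11 in A, and 4 of 5 tested (Col1a2, Col3a1, Postn and Dcn) were called lower in B by the same test. None of the 6 was at 0 reads. Of the ES cell markers Dppa5a, with 2409 CPM in B and 2294 in A, was called higher in B (log2 ratio 0.071, adjusted exact binomial p = 6.14e-20, and 7.22e-15 with the GC trend removed). The part of these cell types in the Kif26b difference was not tested. The ratio also moved with GC content. The 20 members with the lowest GC content had a median log2 ratio of 0.0058 and the other 21 had -0.034, beside 0.023 and -0.030 for all genes tested of lower and of higher GC content. After removal of that trend the log2 ratio was closer to 0 in 19 of 36 members with enough reads and farther from 0 in 17. It was 0.018 for Kif5b, 0.019 for Kif11, 0.039 for Kif23, -0.057 for Kif18b and 0.12 for Kif3b. Kif26b had too few reads for it.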

How the data were processed

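Poly-A RNA of 2 libraries of 1 genotype was analysed. Each library's deposited file lists whole-number read counts by Ensembl gene ID, not normalized. The submitters' processing notes name STAR 2.4.2a, featureCounts 1.4.5-p1 and mm10 without saying what each was used for. The protocol was reverse-stranded, per the labels' protocols. Not given in the sources used here: annotation release, strand setting and handling of reads with several matches. Symbols, positions and exon lengths came from GENCODE M21 (GRCm38, the build of mm10). Of 43629 IDs 97.5% matched, and the rest held 0.163% of counts.

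Totals were 42322129 (B) and 29264632 (A). CPM used TMM factors (edgeR 4.0.16, R 4.3.3) from genes with at least 10 reads. TPM used union exon lengths. Log2 ratios are of B over A with 0.5 reads added to each count, and intervals cover counting error only. The exact binomial test was run in Python 3.11.15 with scipy 1.17.1. Its code was also run on simulated counts that held counting error only. That run does not check the test against further spread between libraries. edgeR's quasi-likelihood test needs replicates on each side and could not be run between single libraries. DESeq2 1.42.0 gave alternative size factors. Promoters came from RefSeq on GRCm38.p6, Kif1bp being matched under the name Kifbp. Of 43 members 34 had a window.

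Members, classes and lists were chosen with earlier results of these data known. Every member may be named by the rule, with values in both libraries for both main classes and the 3 highest of the others. Of partner lists the 3 highest by TPM were to be named with each member called between the libraries. Other partner and marker genes were picked for naming after their values were seen.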

Additional observations from a re-analysis of the deposited data

How the results depend on the processing

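The class medians changed with the way levels were set, and the mitotic class stayed above the neuronal transport class under each alternative run. With the length of the longest transcript the medians were 49.6 TPM for mitotic and 7.54 for transport kinesins, a log2 ratio of mitotic over transport of 2.72. Levels of single genes with that length are not given here, and their order and ratios can change with it. In CPM the class medians were 117 and 20.7, a log2 ratio of 2.49. With members of at least 10 reads only, or without Kif2b, the mitotic median was 51.6 TPM, and the first of these gave a log2 ratio of 2.68. With Kif2a among the mitotic genes the median was 43.3 TPM and the log2 ratio 2.42. With the neuron-enriched subset alone the transport median was 6.72 TPM and the log2 ratio 2.82. Without members overlapped on the opposite strand over more than 10% of their exons the transport median was 8.84 TPM and the log2 ratio 2.42. Leaving out 1 library at a time gave mitotic medians of 46.8 to 48.1 TPM, transport medians of 7.92 to 8.23, log2 ratios of 2.55 to 2.56 and 37 to 38 members at 1 CPM. The count of members called between the libraries was 0 under each alternative but TMM over all genes, where it was 1 (Kif5b). Of all genes tested, 463 of 18198 were called with TMM over all genes, 422 with total counts and 426 with DESeq2 size factors. With the GC trend removed 148 of 13492 were called, so few calls among the members could be looked for there. Shares over all genes for the remaining alternatives are not given here. TMM over all genes moved all log2 ratios by 0.0063. The number of members at 1 CPM was 34 at a threshold of 5 CPM and 39 at 0.5 CPM. Removing the GC trend turned the sign of 8 of 36 members' ratios, none of them called. The alternatives without Kif2b, without Kif1bp, without overlapped members and with TMM over all genes were chosen after seeing the data. No paired analysis was possible because there is 1 group. Depth limits the low genes: the counting interval of the log2 ratio of B over A was -0.69 to 0.65 for Kif17 and -0.58 to 1.61 for Kif28.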
